A study of Homo sapiens with 4 samples.

Results

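A stretch of chromosome 7 that runs from 7p15 across the centromere to 7q11 was examined gene by gene in FaDu cells after knockdown of TET1. The rule took the genes whose locus starts in a fixed interval of chromosome 7 (hg19), in which SKAP2 (start 26706681) is the first member and CCT6P3 (start 64498732) the last, and it left out the HOXA genes, EGFR, IGFBP1, IGFBP3 and GARS. A gene also needed a locus of at least 300 bp, an identifier listed on 1 row, and a mean of at least 1 FPKM over the 4 libraries. FPKM is the number of sequenced fragments scaled by transcript length and by the number mapped. Of 663 rows that start in the stretch, 119 were shorter than 300 bp, and 525 of the others were not left out by name. Of these 525, 110 reached the minimum level and are the members described here, out of 14585 genes in the genome that met the same requirements of length, identifier and level. The stretch was chosen by the FPKM of these same libraries, as one whose genes were lower after knockdown, so the knockdown responses of the members are a description and support nothing by themselves. Hypoxia responses played no part in the choice.

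FaDu is a cell line established from a squamous carcinoma of the hypopharynx. RNA-Seq was done on 4 libraries, 1 for each group: N-scr (normoxia, scrambled control), N-si (normoxia, TET1-si), H-scr (hypoxia, scrambled control) and H-si (hypoxia, TET1-si). Hypoxia lasted 19 h at 1% O2, in a gas mix whose other parts were 94% N2 and 5% CO2, and the study asked which hypoxia-regulated genes depend on TET1. All 4 groups carried a lentiviral hairpin vector, scrambled or directed at TET1, and the study's methods use infected cells 4 to 5 days after infection. A single TET1 hairpin was used. Whether N-si and H-si came from 1 infected culture or clone is not given in the sources used here, so their likeness is not evidence from separate knockdowns. No group had a replicate, so the differences are between single libraries and carry no p-value. Where 4 levels are listed for a gene, they stand in the order N-scr, N-si, then H-scr, H-si.

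TET1 is a dioxygenase that oxidises 5-methylcytosine in DNA, mostly at CpG dinucleotides, and it is best known for action at CpG-rich promoters. A chromosomal stretch is not a pathway: its genes mostly have unrelated roles, and what they share is position, and with it chromatin surroundings, replication and copy number in the cell. Neither DNA copy number nor chromatin was analysed here.

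The sequences that bear on the knockdown and on the members' promoters are shown first. The hairpin target is given because every knockdown value below rests on it. Capitals mark the bases complementary to positions 2 to 8 of the guide strand, the part of a small RNA that pairs first with a transcript.

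TET1 hairpin target: ccttgatagaatcACTCAGTt

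These 21 bases matched the transcripts of TET1 and of no other gene, at chr10:70451833-70451853 (hg19, plus strand), in the non-coding part of exon 12 of 12, the 3′ UTR. The 7 bases in capitals occurred in the canonical transcripts of 28 of 108 members, or 25.9%, against 19.4% of 13954 genes tested. The members' transcripts held 0.818 such matches per 10 kb and those of all genes 0.658, with median transcript lengths of 2827.5 and 2894 bases. A match of these letters is not a measured site of action.

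Different kinds of member are represented by their promoters, each running from 250 bases before to 50 bases after the annotated start. PPIA was the most abundant member, UPP1 had the lowest mean knockdown response among members with at least 5 FPKM, and GBAS was not lowered. Capitals mark CpG dinucleotides, the dinucleotide that TET1 acts on when its cytosine is methylated.

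PPIA: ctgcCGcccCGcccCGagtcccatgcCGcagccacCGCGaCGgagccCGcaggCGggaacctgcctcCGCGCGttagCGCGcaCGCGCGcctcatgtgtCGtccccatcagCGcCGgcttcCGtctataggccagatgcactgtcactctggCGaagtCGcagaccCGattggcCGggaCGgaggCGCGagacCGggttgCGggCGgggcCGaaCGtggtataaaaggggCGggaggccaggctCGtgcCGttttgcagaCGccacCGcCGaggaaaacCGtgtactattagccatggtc
UPP1: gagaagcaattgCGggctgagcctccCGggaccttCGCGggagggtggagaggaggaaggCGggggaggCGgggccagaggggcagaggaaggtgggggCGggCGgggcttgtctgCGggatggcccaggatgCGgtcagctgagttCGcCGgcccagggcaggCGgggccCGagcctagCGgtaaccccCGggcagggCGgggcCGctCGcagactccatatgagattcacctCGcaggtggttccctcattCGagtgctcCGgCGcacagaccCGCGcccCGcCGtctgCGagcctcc
GBAS: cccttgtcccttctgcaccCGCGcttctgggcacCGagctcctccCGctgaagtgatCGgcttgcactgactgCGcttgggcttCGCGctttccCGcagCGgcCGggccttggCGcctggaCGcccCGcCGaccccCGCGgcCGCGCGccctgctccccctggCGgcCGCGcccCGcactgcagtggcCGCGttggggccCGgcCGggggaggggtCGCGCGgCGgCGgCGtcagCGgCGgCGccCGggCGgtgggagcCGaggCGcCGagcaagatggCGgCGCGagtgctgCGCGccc

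The PPIA window lies at chr7:44836030-44836329 on the plus strand, the UPP1 window at chr7:48128612-48128911 on the plus strand and the GBAS window at chr7:56032028-56032327 on the plus strand (all hg19). They held 40, 28 and 47 CpG dinucleotides. The members as a whole had promoters like those of other genes, with a median of 27 CpG in the 300 bases against 26 over 13952 genes, and a GC content of 65.2% against 65.3%. The 31 members that were at least 1.5-fold lower in both oxygen states had a median of 28 CpG and the other 77 a median of 26. At least 20 CpG stood in 25 of the 31 (80.6%) and in 46 of the 77 (59.7%), against 69.5% of all genes. Of the 31, 28 were protein-coding, against 87 of the 110 members, so gene type differed between the sets. The split also used the contrasts that chose the stretch, and the difference in CpG was not tested. The letters ACGTG, the core of the hypoxia response element in one of its forms, occurred on either strand in 24 of 108 member promoters (22.2%) and in 26.0% of all. The other form, GCGTG, occurred in 51 (47.2%) and in 49.7%. The PPIA window held both forms, and those of UPP1 and GBAS held neither.

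The knockdown target itself was lower in both TET1-si libraries. TET1 (ENSG00000138336) stood at 0.129, 0.0493, 0.331 and 0.122 FPKM, which rest on approximately 28, 11, 77 and 26 reads. The recovered depth was 22500000 to 24600000 reads per library. All 10 squamous epithelial markers were at 1 FPKM or more, and their summed level was 4985, 2024, 7795 and 4072 FPKM, lower in each TET1-si library. The summed level of 4 endothelial markers ran from 8.93 to 48.4 FPKM, mostly CDH5, with PECAM1 at 0, and that of the fibroblast markers from 5.30 to 37.2, mostly COL1A1, with LUM and COL1A2 at 0. That of the leukocyte markers ran from 1.68 to 3.62, with PTPRC and CD3E at 0. The part these shifts have in the results below was not tested, and in bulk RNA fewer cells with a transcript cannot be told apart from less RNA per cell.

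The members were lower after TET1 knockdown under both oxygen states. The median knockdown response, the log2 ratio of TET1-si to scrambled after adding 0.1 FPKM to each, was -0.52 under hypoxia and -0.43 under normoxia. The same medians over all genes tested were 0.10 and 0.16, so the members lay 0.62 and 0.59 log2 units below the typical gene. The middle quartiles of the members ran from -1.09 to -0.19 under hypoxia and from -0.86 to -0.10 under normoxia. Summed over the 110 members, the level was 9693, 5651, 7690 and 3782 FPKM. PPIA alone made up a large part of these sums, and without it they were 5354, 3542, 4286 and 2494.

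Under hypoxia 29 of the 110 members were at least 2-fold lower after knockdown, against 7.84% of all genes tested, and 2 were higher by that fold, against 11.5%. Under normoxia 19 were at least 2-fold lower (4.81% of all genes) and 1 was higher by that fold (11.8%). At a fold of 1.5, 52 members were lower under hypoxia (16.4%) and 43 under normoxia (11.4%), and 31 were lower by that much in both states (7.32%). Lower by any amount were 92 members under hypoxia (43.1%) and 88 under normoxia (38.8%). Both TET1-si libraries lay below both scrambled libraries for 55 members (15.7%), and above them for 3 (29.2%). Since these contrasts chose the stretch, nothing is read from the excess over the background. Counting error was small beside these changes for most members: the 95% counting interval of the ratio lay below 0 in both states for 62 of the 107 members with an interval, against 20.9% of all genes, and above 0 in both for 3, against 35.1%.

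The lowering followed position along the chromosome without being even. Taken as a running median of 21 neighbouring genes, the knockdown response was below 0 at all 110 members in both states and was lowest at SEPT7P2, with -1.20 under hypoxia and -1.03 under normoxia. That window reaches from TMED4 to COBL, positions 44617493 to 51384515. Elsewhere on chromosome 7 the running median fell no lower than -0.69 in either state. The 122 genes before the stretch had medians of -0.01 under hypoxia and 0.05 under normoxia, and the 442 genes after it -0.23 and -0.21. The 13895 genes on other chromosomes had medians of 0.12 and 0.18.

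**Figure D1:**
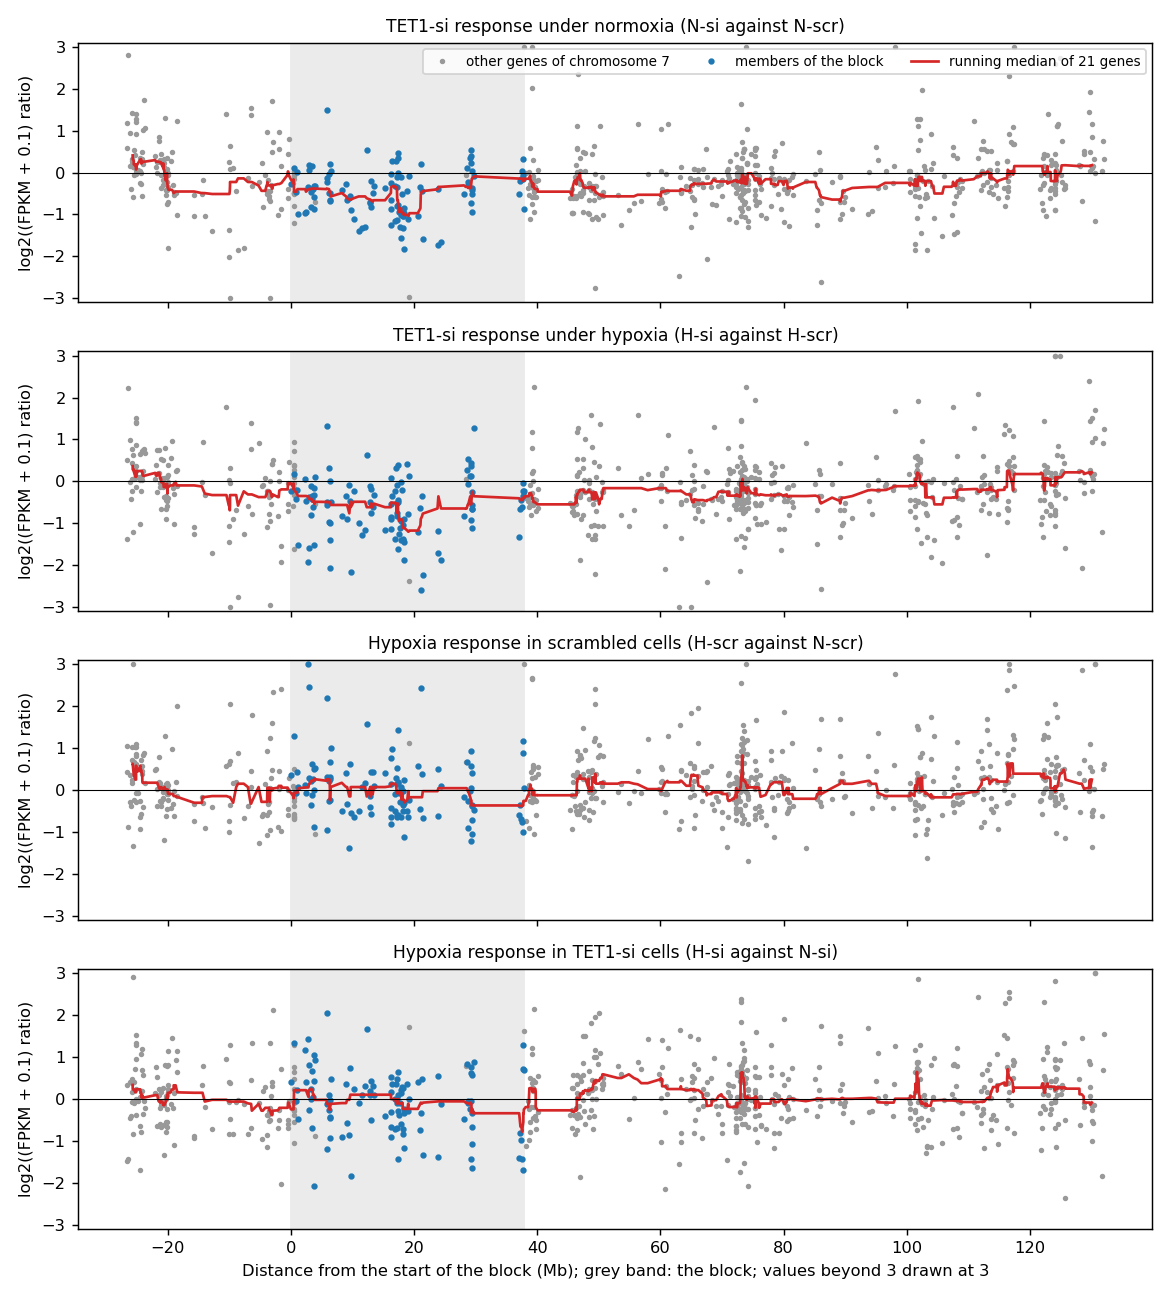
Log2 change of each gene tested along chromosome 7, by distance from the start of the stretch in Mb, in 4 panels for the knockdown response under normoxia and hypoxia and the hypoxia response in scrambled and TET1-si cells. Points are genes, values beyond 3 are drawn at 3, the red line is the running median of 21 genes and the grey band is the stretch, where the line dips to -1.03 and -1.20 in the knockdown panels.

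Within the stretch, the 19 members from 44 to 46 Mb had medians of -0.95 under hypoxia and -0.94 under normoxia. Of these 19, 12 were at least 1.5-fold lower in both states (7.32% of all genes). The 8 members from TNS3 to COBL had medians of -1.46 and -0.74. By contrast, the 15 members from SEC61G to the pseudogene that follows CHCHD2, on the short arm next to the centromere, had medians of -0.06 and -0.22. The first 19 members, from SKAP2 to AC005154.6, had medians of -0.36 and -0.38. These limits within the stretch were drawn after the values were seen. The longest run of neighbouring members all lower in both states held 13 genes, from POLD2 to TBRG4 (44154286 to 45151646), with medians of -1.26 and -1.01.

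Abundance and gene type went with the size of the lowering. The 38 members with a mean of at least 25 FPKM had medians of -0.92 under hypoxia and -0.75 under normoxia, while all genes of that level had -0.01 and 0.08. The 34 members between 1 and 5 FPKM had medians of -0.29 and -0.30, while all genes of that level had 0.27 and 0.27, so part of the gap between the classes was also present in genes at large. The 87 protein-coding members had medians of -0.62 and -0.49, and the 23 of other types, 10 of them long non-coding RNAs and 11 pseudogenes, had -0.19 and -0.20. The corresponding medians over all genes were 0.08 and 0.15 for protein-coding genes and 0.25 and 0.22 for other types. The strand made little difference, with medians of -0.48 and -0.44 for 51 members on the plus strand and -0.66 and -0.43 for 57 on the minus strand.

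The knockdown responses of the members under the 2 oxygen states were alike in order, with a Pearson correlation of 0.60 and a Spearman correlation of 0.59 across the 110 members, against 0.67 for both over all genes tested. The 2 contrasts share no library, although their cells may share the infected culture, and genes are not replicates, so this is a description.

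**Figure D2:**
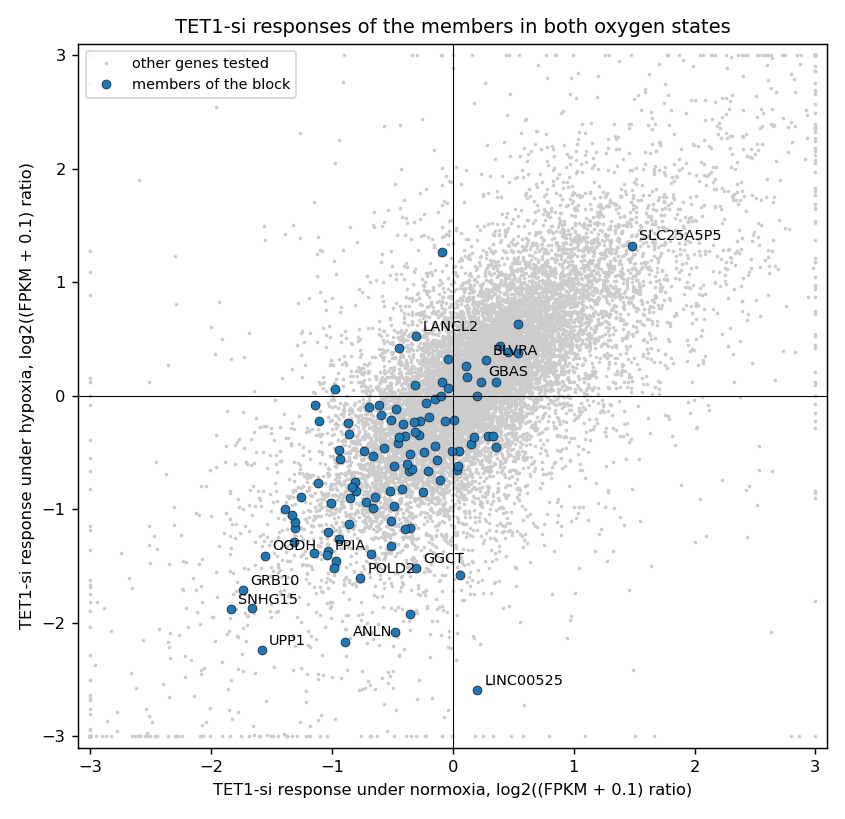
Knockdown response under normoxia (x axis) against that under hypoxia (y axis), both as log2 change, with the 110 members in blue and all other genes tested in grey (drawn at 3 where beyond it). Most members sit in the lower left, where 80 of them (29.1% of all genes) are lower in both states.

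The most lowered members came from several pathways. UPP1 (ENSG00000183696, 48128225 to 48148330) encodes uridine phosphorylase, which splits uridine into uracil and ribose phosphate. Its level was 60.3, 20.1, 37.8 and 7.92 FPKM. Scrambled cells thus held 3.01 times the TET1-si level under normoxia and 4.77 times under hypoxia, and the 95% counting intervals were -1.71 to -1.46 and -2.45 to -2.06 on the log2 scale. SNHG15 (ENSG00000232956), a non-coding host gene of a small nucleolar RNA, stood at 77.2, 21.5, 35.3 and 9.54 FPKM. It had the same order of libraries as UPP1, with responses of -1.84 under normoxia and -1.88 under hypoxia. GRB10 (ENSG00000106070), an imprinted adaptor that binds the insulin receptor and restrains its signal, stood at 13.6, 4.0, 19.5 and 5.87 FPKM. Both scrambled libraries held over 3 times the TET1-si level, 3.39 and 3.32.

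COBL (ENSG00000106078), the actin nucleator cordon-bleu next to GRB10, had responses of -1.67 under normoxia and -1.87 under hypoxia. TNS3 (ENSG00000136205), a tensin that links integrins to actin, had -1.04 and -1.20. Altogether 13 members were at least 2-fold lower in both oxygen states, against 2.89% of all genes tested, and they were STARD3NL, VPS41, COA1, NUDCD3, OGDH, PPIA, H2AFV, PURB, SNHG15, TNS3, UPP1, GRB10 and COBL.

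**Figure D3:**
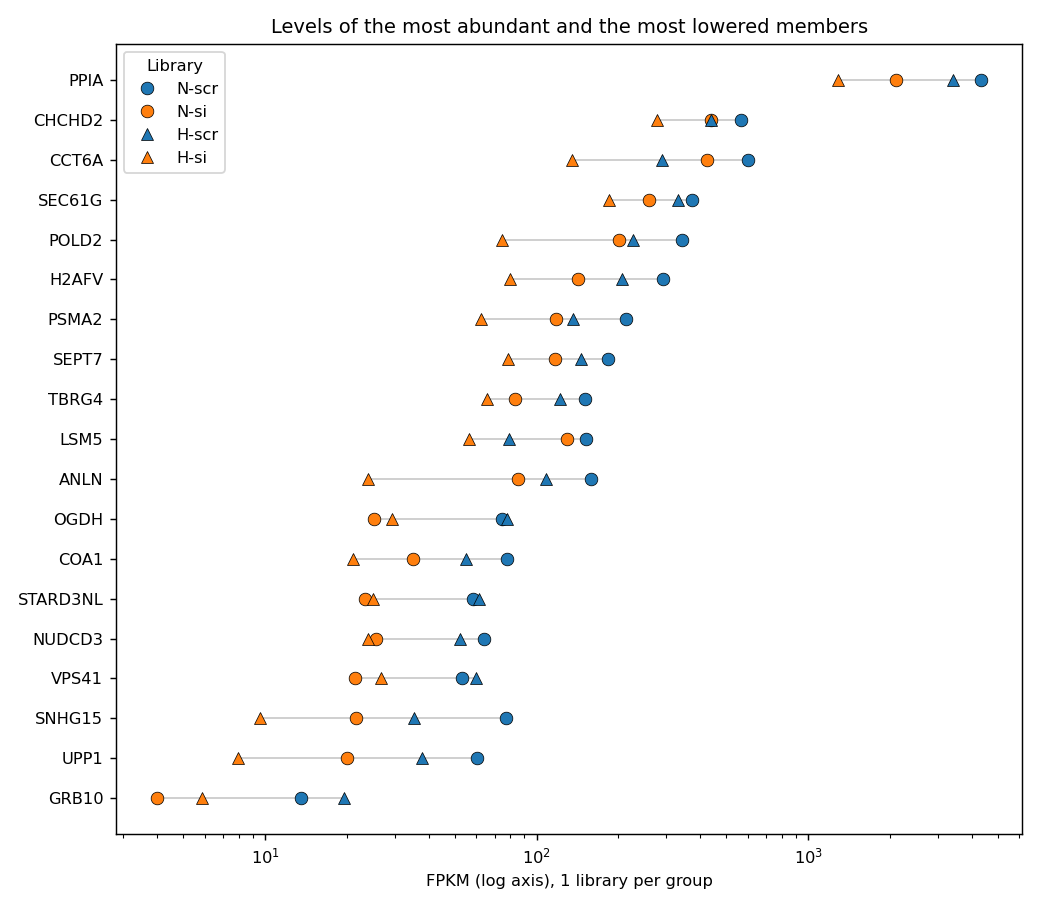
FPKM (log axis) of the most lowered and the most abundant members in each of the 4 libraries. Circles are normoxia and triangles hypoxia, blue is scrambled and orange TET1-si; UPP1 runs from 60.3 in N-scr to 7.92 in H-si.

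The lists of roles held 77 of the 110 members, with medians of -0.65 under hypoxia and -0.51 under normoxia. The 33 members in no list were less lowered, with medians of -0.34 and -0.20. Many of these 33 were non-coding RNAs or pseudogenes. Members of types other than protein-coding had medians of -0.19 and -0.20, so gene type and absence from the lists cannot be told apart here. Genes of protein folding and turnover made up 11 members, all 11 lower in both states (29.1% of all genes), with medians of -0.97 under hypoxia and -0.51 under normoxia. None of the 11 was at least 1.5-fold higher in either state, and nor was any of the 87 protein-coding members. Over all genes 3512 of 14585 were higher by that much under hypoxia and 3582 under normoxia. Lower in both states were 80 of all 110 members. Since the same contrasts chose the stretch, nothing about a role group is read from such counts of knockdown responses, here or below. PPIA (ENSG00000196262, 44836279 to 44864163) encodes cyclophilin A, an abundant prolyl isomerase, and stood at 4339, 2108, 3404 and 1287 FPKM. Scrambled cells held 2.06 times the TET1-si level under normoxia and 2.64 times under hypoxia. PPIA has many processed pseudogenes that can share its reads. CCT6A (ENSG00000146731), a subunit of the cytosolic chaperonin that folds actin and tubulin, stood at 602, 422, 289 and 134 FPKM. PSMA2 (ENSG00000106588), an alpha subunit of the proteasome core, had 214, 118, 136 and 62.4 FPKM, and it overlaps another locus on the same strand. NUDCD3 (ENSG00000015676), a co-chaperone that stabilises dynein, was 2.49 times as high in scrambled as in TET1-si cells under normoxia and 2.17 times under hypoxia.

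Genes of the secretory pathway and membrane traffic gave 10 members, with medians of -0.69 under hypoxia and -0.32 under normoxia. All 10 were lower under hypoxia (43.1% of all genes) and 8 under normoxia (38.8%). STARD3NL (ENSG00000010270), a cholesterol-binding protein of late endosomes, stood at 58.1, 23.4, 61.2 and 25 FPKM. SEC61G (ENSG00000132432), a subunit of the channel through which proteins enter the endoplasmic reticulum, stood at 372, 260, 331 and 185. VPS41 (ENSG00000006715), a subunit of the HOPS complex that tethers vesicles to lysosomes, stood at 53.0, 21.4, 59.9 and 26.7. For STARD3NL and VPS41 the pair of scrambled libraries lay close together and far above the pair of TET1-si libraries, with responses between -1.16 and -1.31. YKT6 (ENSG00000106636), a SNARE of membrane fusion, had responses of -0.94 under normoxia and -1.26 under hypoxia. TMED4 (ENSG00000158604), a p24 cargo receptor, lay among strongly lowered neighbours at 27.7, 25.8, 28.4 and 28.3 FPKM, a response of -0.10 and -0.00.

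Mitochondrial and metabolic genes gave 15 members, with MRPS17 listed under 2 identifiers, and medians of -0.67 under hypoxia and -0.66 under normoxia. OGDH (ENSG00000105953), the first enzyme of the 2-oxoglutarate dehydrogenase complex in the citric acid cycle, stood at 74.3, 25.2, 78.0 and 29.3 FPKM. The 2 TET1-si values lay near each other, at ratios of 2.94 under normoxia and 2.66 under hypoxia, and oxygen moved the gene little. COA1 (ENSG00000106603), an assembly factor of cytochrome c oxidase, stood at 77.5, 35, 55.2 and 21.1 FPKM. GGCT (ENSG00000006625), gamma-glutamylcyclotransferase of glutathione turnover, was 1.24 times as high in scrambled as in TET1-si cells under normoxia and 2.87 times under hypoxia. CHCHD2 (ENSG00000106153), a mitochondrial protein that also acts on transcription in the nucleus, changed less, from 566 to 439 FPKM under normoxia and from 440 to 277 under hypoxia. Counting the group as a whole, 9 were at least 1.5-fold lower under hypoxia (16.4% of all genes) and 8 under normoxia (11.4%).

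The 6 genes of DNA replication, repair and chromatin had medians of -1.27 under hypoxia and -0.88 under normoxia, and all 6 were at least 1.5-fold lower under hypoxia (16.4% of all genes) and 4 under normoxia (11.4%). The list does not hold every member with such a role: the repair genes POLM, in no list, and EEPD1, listed with signalling, had -0.45 and -0.08 under hypoxia and 0.35 and -0.61 under normoxia. POLD2 (ENSG00000106628), an accessory subunit of DNA polymerase delta, stood at 344, 202, 226 and 74.3 FPKM, so H-si was far below the other 3. H2AFV (ENSG00000105968), which encodes a form of the histone variant H2A.Z, stood at 292, 143, 206 and 80.1. PURB (ENSG00000146676), which binds purine-rich single strands, had responses of -1.33 under normoxia and -1.05 under hypoxia. FIGNL1 (ENSG00000132436), an ATPase of homologous recombination, had -0.40 and -1.17, and HUS1, a subunit of the DNA damage clamp, had -0.34 and -0.65.

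All 10 members of the cytoskeleton and cell division group were lower in both TET1-si libraries than in both scrambled libraries (15.7% of all genes). Their medians were -0.85 under hypoxia and -0.92 under normoxia. ANLN (ENSG00000011426), anillin, the scaffold of the cytokinetic ring, stood at 159, 85.5, 108 and 24.0 FPKM. Scrambled cells held 1.86 times the TET1-si level under normoxia but 4.51 times under hypoxia. SEPT7 (ENSG00000122545), a core septin, had 183, 117, 145 and 78.6 FPKM, and its pseudogene SEPT7P2, which lies further along the stretch and can share reads with it, had 22.8, 10.4, 14.7 and 8.55. DBNL, an actin-binding adaptor that the list does not hold, had -0.48 under hypoxia and -0.01 under normoxia. RALA (ENSG00000006451), a small GTPase of vesicle tethering, had responses of -0.81 under normoxia and -0.76 under hypoxia.

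The 9 genes of RNA processing and transcription were all lower under hypoxia (43.1% of all genes), with a median of -0.49. Under normoxia 8 were lower (38.8%), with a median of -0.36. DDX56 (ENSG00000136271), a nucleolar helicase of ribosome assembly, was the one in this group at least 1.5-fold lower in both states, with -1.01 under normoxia and -0.95 under hypoxia. LSM5 (ENSG00000106355), a subunit of the LSM ring that handles U6 RNA and mRNA decay, had 152, 129, 79.0 and 56.2 FPKM, so oxygen moved it more than knockdown. GLI3, a transcription factor of hedgehog signalling, had 2.82, 2.18, 3.78 and 1.63 FPKM.

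Genes for secreted factors and signalling gave 8 members with smaller medians, -0.20 under hypoxia and -0.52 under normoxia, of which 2 were at least 1.5-fold lower under hypoxia (16.4% of all genes) and 4 under normoxia (11.4%). GRB10 and EPDR1 were those lower by that much in both. The zinc finger list near the centromere gave 8 members, with medians of -0.40 under hypoxia and -0.11 under normoxia. They encode KRAB-type repressors, apart from ERV3-1, which is not a zinc finger gene. None of the 8 was at least 1.5-fold lower under normoxia (11.4% of all genes), and none had both TET1-si libraries below both scrambled ones (15.7%). Among so few genes, such counts do not stand apart from these shares. The zinc finger genes resemble each other in sequence, so reads can be split among them.

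**Figure D4:**
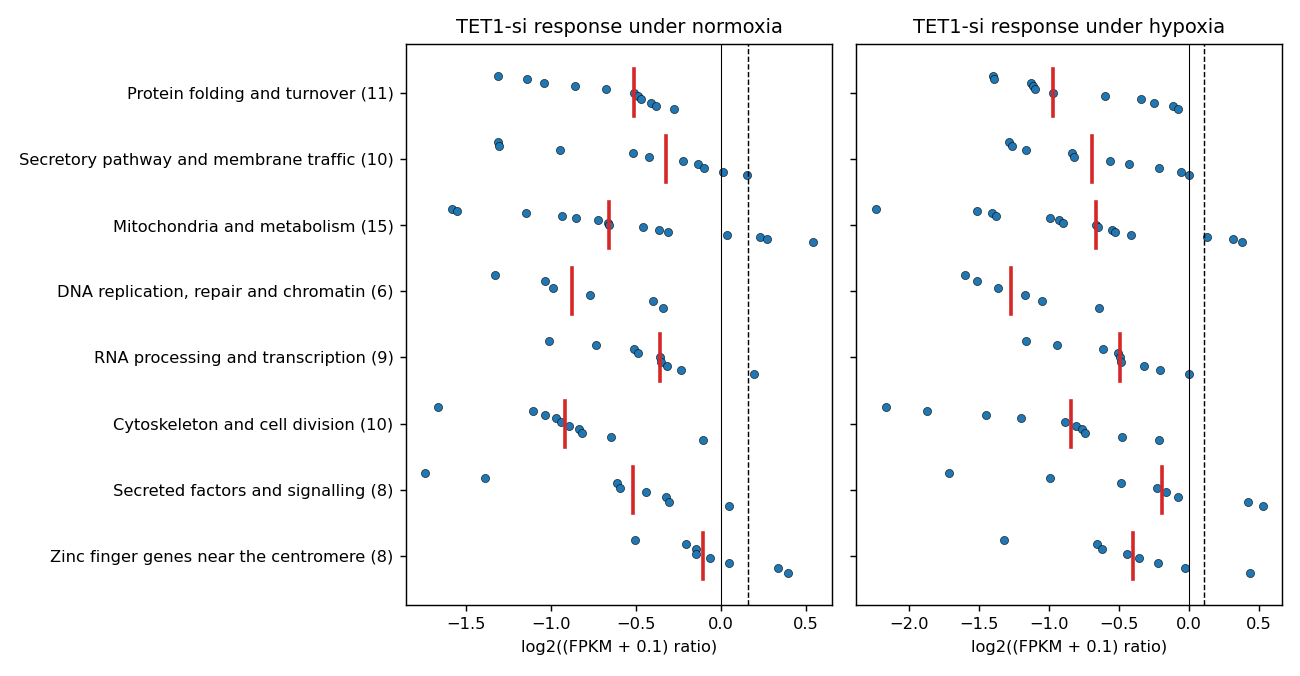
Knockdown response (log2 change) of each member by role group, under normoxia and hypoxia, with a red bar at each group's median and a dashed line at the median of all genes tested. The replication, repair and chromatin group lies lowest under hypoxia (-1.27), the cytoskeleton group lowest under normoxia (-0.92), and the zinc finger group near 0 under normoxia (-0.11).

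Several members belong to complexes whose other subunits are encoded elsewhere. The 12 members with such a list had a median knockdown response of -0.91 under hypoxia and -0.65 under normoxia, and their 111 partners had 0.01 and 0.05. These contrasts chose the stretch that holds the members and not the partners. A gap between them was therefore built in, and nothing is read from it. Of the 12, 10 were at least 1.5-fold lower under hypoxia and 7 under normoxia, against 22 and 10 of the 111 partners. The shares over all genes were 16.4% and 11.4%. OGDH had -1.41 under hypoxia and -1.55 under normoxia, below both other enzymes of its complex, which did not move alike: DLD had -0.37 and -0.17, and DLST had 0.44 and 0.63. CCM2, a scaffold of endothelial junction signalling, had -1.45 and -0.97. Its partners went opposite ways under normoxia: KRIT1 had 0.16 under hypoxia and -0.29 under normoxia, and PDCD10 had 0.15 and 0.49. SEPT7 had -0.89 and -0.65, and 6 other septins 0.01 and 0.07, although SEPT10 on chromosome 2 had -1.10 and -0.81.

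For other complexes the median of the partners was below 0 too under hypoxia, though not every partner was lower. CCT6A had -1.10 under hypoxia and -0.51 under normoxia, and the 7 other chaperonin subunits had medians of -0.41 and -0.06. Of the 7, 5 were lower in each state, with CCT5 at -1.01 and -0.46 but CCT8 at 0.45 and 0.77. PSMA2 had -1.13 and -0.86, and the 6 other alpha subunits -0.65 and -0.39, although PSMA4 had 0.14 and 0.26. POLD2 had -1.60 and -0.77, while POLD1, POLD3 and POLD4 had a median of -0.58 under hypoxia and of 0.51 under normoxia. POLD4 was higher in both states, at 0.40 and 0.61. PSPH, the last enzyme of serine synthesis, had partners that lay below the member in both states: PHGDH and PSAT1 had medians of -1.39 and -0.78, and PSPH had -0.65 and 0.04. SEC61G had -0.84 and -0.52, with SEC61A1 and SEC61B at medians of -0.56 and -0.39, and HUS1 had -0.65 and -0.34, with RAD1 and RAD9A at -0.98 and -0.22. LSM5 had -0.49 and -0.24, and 6 other ring subunits -0.20 and 0.03. By contrast, the 46 large-subunit proteins of the mitochondrial ribosome had medians of 0.09 and 0.07 where MRPL32 had -0.53 and -0.66. The 27 small-subunit proteins had 0.14 and 0.18 where MRPS17 (ENSG00000239789) had -0.93 and -0.72.

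**Figure D5:**
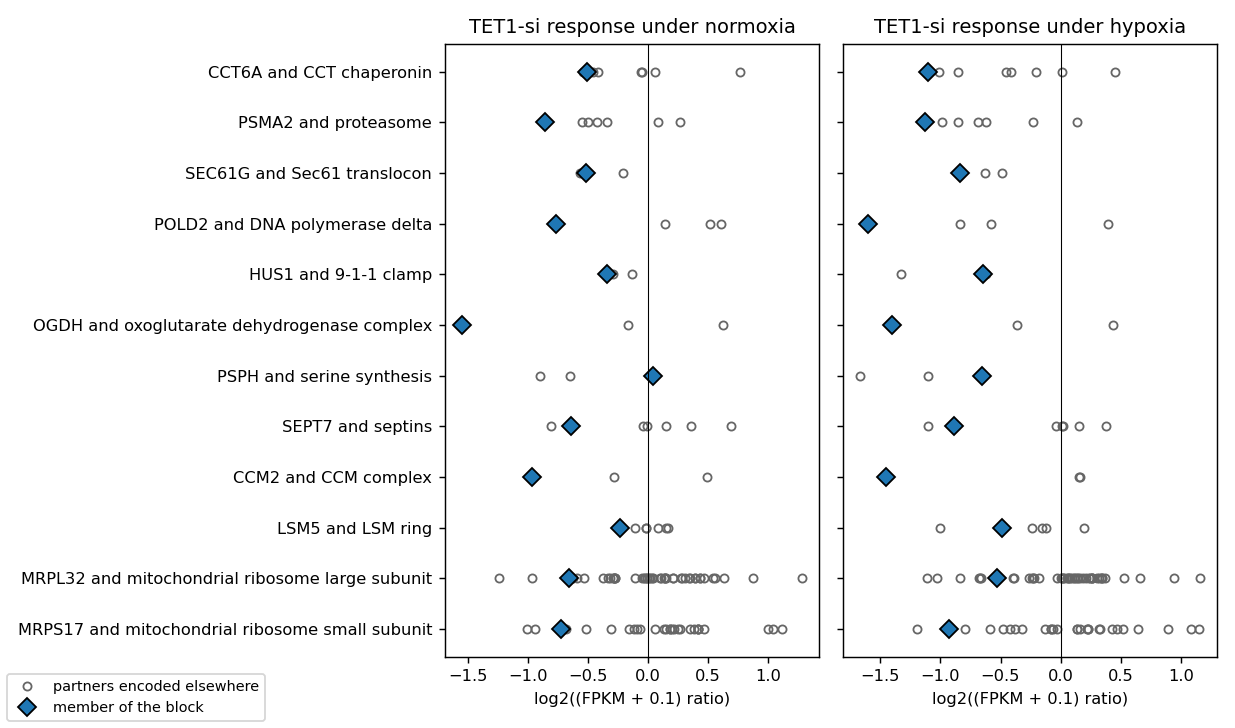
Knockdown response (log2 change) of 12 members, drawn as diamonds, and of their partners encoded outside the stretch, drawn as open circles, under normoxia and hypoxia. OGDH lies at -1.41 under hypoxia, with its partners DLD at -0.37 and DLST at 0.44.

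Not every member was lowered. In both oxygen states 10 members were higher by any amount, against 47.2% of all genes, among them HOTAIRM1, SLC25A5P5, BLVRA, AC004951.6, EGFR-AS1, PSPHP1, MRPS17 (ENSG00000249773), ZNF713 and GBAS. SLC25A5P5, a processed pseudogene of the ADP/ATP carrier gene SLC25A5, was the highest of these, from 0.127 to 0.536 FPKM under normoxia and from 0.952 to 2.53 under hypoxia. It lies just above the minimum level, and reads can be shared with its parent gene. GBAS (ENSG00000146729), a mitochondrial protein now called NIPSNAP2, had 73.0, 85.6, 75.4 and 82.2 FPKM. BLVRA (ENSG00000106605), the biliverdin reductase of haem breakdown, had 14.5, 17.6, 17.9 and 22.3, with both TET1-si values above the scrambled value of the same oxygen state. The pseudogene ENSG00000224370, with a short locus beyond CHCHD2, was at 1.40, 1.31, 0.982 and 2.50 FPKM, so H-si alone stood higher. GBAS overlaps MRPS17 on the same plus strand, so counting by strand would not separate their reads. Of the MRPS17 entries, ENSG00000239789 was lowered and ENSG00000249773, named above, was not.

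The hypoxia response of the members, which the choice did not use, was centred near 0. The median was -0.01 without and -0.03 with knockdown, against 0.06 and 0.03 over all genes tested. Without knockdown, 8 members were higher in hypoxia by 2-fold or more (12.5% of all genes) and 5 were lower (3.85%). With knockdown, 7 were higher (11.9%) and 13 lower (8.19%). Both hypoxia libraries lay above both normoxia libraries for 26 members (23.6%) and below them for 21 (23.4%). The 2 hypoxia responses had a Pearson correlation of 0.71 and a Spearman correlation of 0.73 over the members, against 0.64 and 0.71 over all genes.

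By 1.5-fold or more, 12 members were higher in hypoxia both with and without knockdown (14.7% of all genes), and 17 were lower (9.26%). AC007255.8 (ENSG00000223813), a non-coding gene beside PRR15, stood at 0.720, 0.542, 6.47 and 1.63 FPKM. PRR15 (ENSG00000176532), which encodes a small proline-rich protein, stood at 3.03, 3.16, 17.1 and 5.65 FPKM. For both genes H-scr was far above the other 3 libraries, and the hypoxia response was 3.0 and 2.46 in scrambled but 1.43 and 0.82 in TET1-si cells. HOTAIRM1, a non-coding RNA at the start of the HOXA cluster, was more than 2-fold higher in hypoxia in both, with 47.7, 51.6, 116 and 131 FPKM, and knockdown moved it little.

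Among the 17 members lower in hypoxia were CCT6A, LSM5, MRPL32, MRPS17 (ENSG00000239789), MRPS24, PSMA2, POLD2 and DDX56. MRPS17 stood at 46.1, 27.9, 19.8 and 10.3 FPKM, so the lowest value was in the library with both treatments. EEPD1 (ENSG00000122547), a nuclease of stalled replication forks, stood at 4.71, 3.04, 1.75 and 1.64 FPKM. SNHG15 had hypoxia responses of -1.12 and -1.17. The partners of CCT6A also lay lower in hypoxia, with medians of -0.91 in scrambled and -1.06 in TET1-si cells. Of the 8 members on the zinc finger list, 5 had both hypoxia libraries below both normoxia libraries (23.4% of all genes). The other 3 had both above (23.6%). These are few genes, and reads can be split among them. Among the 3 were ZNF117 and ERV3-1, whose loci overlap. ZNF273 stood at 7.87, 9.95, 3.87 and 3.01 FPKM, whereas ZNF117 stood at 1.60, 1.43, 3.70 and 3.62.

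The study selected hypoxia-induced genes that knockdown lowers by asking that H-scr exceed 2 times H-si, that H-scr exceed N-scr, and that N-scr be at least N-si. Applied to the deposited values, this left 12 of the 110 members (3.57% of all genes tested): JAZF1, AC007255.8, FKBP9, AC083863.7, STARD3NL, VPS41, GLI3, OGDH, CCM2, TNS3, GRB10 and COBL. The conditions on H-si and N-si use the contrasts that chose the stretch, so nothing is read from the excess over all genes. In several of these the hypoxia step was small. Without knockdown STARD3NL went from 58.1 to 61.2 FPKM and OGDH from 74.3 to 78.0, while the knockdown step was more than 2-fold in each. Across all members the signed hypoxia response lay lower in TET1-si than in scrambled cells for 61 of 110, genes with a stronger fall in hypoxia after knockdown such as POLD2 and CCT6A included, against 55.7% of all genes tested, and the median difference was -0.09, against -0.06 over all genes.

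The genes left out by name did not move as one. IGFBP3, a secreted binding protein of insulin-like growth factors, stood at 68.1, 8.68, 148 and 28.6 FPKM, responses of -2.96 under normoxia and -2.37 under hypoxia. EGFR, the epidermal growth factor receptor, stood at 64.0, 61.4, 103 and 106 and hardly moved with knockdown. GARS, the glycyl-tRNA synthetase, had responses of -0.71 and -0.54. The 13 HOXA genes and antisense RNAs at 1 FPKM or more had medians of -0.25 under normoxia and -0.03 under hypoxia. IGFBP1 was listed at 0 in all libraries except H-scr, at 0.035 FPKM.

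At the minimum level, the members just inside were AC010132.11 with a mean of 1.01 FPKM, SLC25A5P5 with 1.04 and AC007255.7 with 1.05, and those just outside included C7orf10 with 0.664 and CREB5 with 0.641. At the limits in position, the first member was SKAP2 (ENSG00000005020), an adaptor of immune-receptor signalling, with 23.3, 19.2, 29.9 and 25.6 FPKM. Just before it, HNRNPA2B1 had responses of -0.38 under normoxia and -0.55 under hypoxia, CBX3 -0.61 and -0.71, and SNX10 0.79 and 0.47. The last member was CCT6P3 (ENSG00000234585), a pseudogene of CCT6A, with 4.43, 2.38, 4.60 and 3.90 FPKM, and of the next 3 genes RP11-460N20.4 was listed at 0 in N-scr and at 1.08, 4.33 and 3.54 FPKM in the others, ZNF92 had -0.01 under normoxia and -0.40 under hypoxia, and CCT6P1 had -0.37 and -0.46.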

How the data were processed

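RNA was measured by RNA-Seq in 4 FaDu libraries, 1 per group. The values are FPKM deposited by the authors, made with TopHat and Cufflinks on hg19 per the submitters' processing notes, with Ensembl identifiers. Tool versions and filters are not given in the sources used here. Reads were 100 bp, single-end per the labels and paired-end per the methods. Starts in the table count from 0, and 1 was added. The members, gene lists and tests were chosen with earlier results of these data known.

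Changes are log2(FPKM + 0.1) differences, which understate the change of low genes, and a call means past 2-fold or 1.5-fold. Genes tested had a locus of at least 300 bp, 1 row and a mean of at least 1 FPKM. Depth was recovered from 7702 single-exon genes, whose low values came out as whole reads within 0.05 for 92.5% to 93.5% of values. Exact Clopper-Pearson 95% intervals on these approximate reads cover counting error only. Named members were the 10 lowest (mean FPKM of at least 5), the 5 highest, the 10 most abundant, 4 hypoxia responses in each direction, the ends, those near the minimum, up to 4 examples per role group, and members with partners; COBL, TMED4, SEPT7P2, GLI3, HOTAIRM1, ZNF117 and BLVRA, and members listed by a count, were named after their values were seen. Not every gene that the rule names is reported here. Promoters and transcripts came from the hg19 genome with canonical starts of GENCODE v44lift37, matched for 108 members by identifier. Scripts ran in Python 3.11.15 with pandas 2.3.3, numpy 2.4.6 and scipy 1.17.1, and were tested on simulated data. Alternatives were other pseudocounts, scalings, minimum levels, limits of the stretch and gene types.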

Additional observations from a re-analysis of the deposited data

Results flagged for a closer look

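Some members moved in opposite directions in the 2 oxygen states or the 2 knockdown states, with each counting interval excluding 0. The difference between the states was not tested, since each group had 1 library. All values are log2 changes. The knockdown responses under normoxia and under hypoxia were 0.15 and -0.43 (difference -0.58) for PLEKHA8, a lipid transfer protein of the Golgi, and 0.29 and -0.35 (difference -0.64) for HECW1, a ubiquitin ligase. POLM, a DNA polymerase of end joining, had 0.35 and -0.45 (difference -0.80), and ZNF273 had 0.33 and -0.36 (difference -0.69). The order was the other way for ADCY1, an adenylyl cyclase, with -0.44 and 0.42 (difference 0.86), and for LANCL2, with -0.31 and 0.53 (difference 0.83).

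The hypoxia responses without and with knockdown were 0.31 and -0.12 (difference -0.43) for AVL9, 0.22 and -0.26 (difference -0.48) for KBTBD2 and 0.26 and -0.46 (difference -0.72) for FKBP9, a prolyl isomerase of the endoplasmic reticulum. GLI3 had 0.41 and -0.40 (difference -0.81) and CCM2 0.24 and -0.24 (difference -0.48). DBNL had 0.20 and -0.28 (difference -0.47). The order was the other way for ELMO1, a Rac activator, with -0.64 and 0.24 (difference 0.89), for UBE2D4, a ubiquitin-conjugating enzyme, with -0.60 and 0.46 (difference 1.06), and for ADCY1, with -0.50 and 0.36 (difference 0.86).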

How the results depend on the processing

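No replicate could be left out, since each group had 1 library. No paired analysis was possible because each group has 1 library and the labels give no replicate numbers. Under 10 alternatives, 65 of 80 values stayed within 0.1 log2 units (medians) or 1.5 times (counts) of the value given, and 15 moved further. Whether single members changed their call is not given here. The median knockdown response under hypoxia was -0.64 with median-of-ratios scaling, -0.66 with a minimum of 5 FPKM and -0.62 over protein-coding members. Under normoxia it was -0.60 with median-of-ratios scaling, -0.56 with upper-quartile scaling and -0.27 with no minimum level. Median-of-ratios scaling put the medians of all genes at -0.02 and -0.01 in place of 0.10 and 0.16. The median hypoxia response in scrambled cells was 0.11 after rescaling to TPM and 0.13 with no minimum, and in TET1-si cells 0.082 with upper-quartile scaling and 0.10 with TPM, where all genes had 0.17 and 0.16. So the sign of the members' hypoxia median depended on the scaling. With no minimum level, the members numbered 229 in place of 110, so the counts rose. Of these 229, 54 were at least 2-fold lower under hypoxia and 33 under normoxia, and 98 and 75 were at least 1.5-fold lower. The shares over all genes at that setting are not given here. Median-of-ratios scaling gave 31 of the 110 members at least 2-fold lower under normoxia.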
